A study of Homo sapiens with 20 samples.

Results

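The genes described here encode the parts of the proteasome and the factors that assemble it, measured by sequencing total RNA from HCT-116, a human cell line established from a colorectal carcinoma. Members were taken by gene symbol: 7 α and 7 β subunits of the 20S core, 6 ATPases and 12 other subunits of the 19S cap, 4 activators of the PSME family and 8 assembly factors. All 44 were found among the 39918 genes of the count table, and all 44 were among the 18959 genes tested. The 20 libraries formed 5 groups of 4. One group received 20 µM MG132 with 50 µg/ml α-amanitin for 3 h, a second received 20 µM MG132 for 3 h and a further group 100 nM bortezomib for 3 h. All of these cells had first been held in 2 mM thymidine for 16 h and released into fresh medium for 7 h, as had the G2 group, which was collected at 0 h of drug. The asynchronous group had neither thymidine nor drug. A G2 group carried through the 3 h with vehicle was not analysed here, so every drug-to-G2 difference includes the 3 h that the cell cycle ran on. Only the drug groups were matched in time with each other, and the doses of MG132 and bortezomib differ. Everything was measured in 1 cell line. Nothing in the labels ties the replicates to separate cultures, so the p-values reflect how much these 4 libraries a group vary, and that variation may be only technical.

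The proteasome degrades proteins tagged with ubiquitin. Its 20S core is a barrel whose inner β rings hold the proteolytic sites, and the 19S cap recognises, unfolds and threads substrates into it, driven by a ring of ATPases. MG132, a peptide aldehyde, and bortezomib, a peptide boronate, both act mainly on the chymotrypsin-like site of the β subunit encoded by PSMB5. When the proteasome is blocked, human cells are known to stabilise the transcription factor NFE2L1, which is extracted by VCP, deglycosylated by NGLY1, cut by DDI2 and then, with a small MAF partner, drives proteasome genes through antioxidant response elements. α-amanitin inhibits RNA polymerase II, so the combined treatment bears on whether a transcript level depends on new synthesis. The comparisons below ask how the transcripts of this machine stood after 3 h of inhibition.

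Promoters show which members carry the core of the antioxidant response element, TGACNNNGC, read on both strands. RefSeq promoter sequences (GRCh38.p14, from 250 bases before to 50 bases after the start) matched 38 of the 44 members, while PSMA7, PSMB1, PSMB6, PSMB7, PSMD4 and PSMG3 had no entry. The motif was present in 13 of the 38 (34.2%), against 13.6% of all 27305 promoters of that length. By role, it was present in 0 of 6 α subunits, 1 of 4 β subunits, 1 of 6 ATPases, 4 of 11 other 19S subunits, 3 of 4 activators and 4 of 7 assembly factors. A match is a description of letters and not a measured site. The only matches in PSMC4 and PSMD1 begin past the start, at positions 28 and 40. Windows of 29 bases from 1 or more members of each class that has the motif are shown 5′ to 3′ on the gene's strand, with the motif or its reverse complement in capitals.
PSMB3, chr17:38752627-38752655, plus strand: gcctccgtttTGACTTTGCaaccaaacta
PSMC4, chr19:39971182-39971210, plus strand: acagaggccgGCTTGGTCActatggagga
PSMD12, chr17:67366724-67366752, minus strand: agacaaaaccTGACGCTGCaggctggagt
ADRM1, chr20:62302749-62302777, plus strand: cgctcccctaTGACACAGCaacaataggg
PSME4, chr2:53971009-53971037, minus strand: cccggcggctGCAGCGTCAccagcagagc
PSMG1, chr21:39183616-39183644, minus strand: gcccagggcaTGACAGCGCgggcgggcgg

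The 250 bases before the start are given for PSMD12, a member with the motif whose bortezomib libraries all lay above G2 without passing the test, and for the subunit that carries the drugs' main site, PSMB5, whose promoter has no TGACNNNGC.
PSMD12, chr17:67366578-67366827, minus strand: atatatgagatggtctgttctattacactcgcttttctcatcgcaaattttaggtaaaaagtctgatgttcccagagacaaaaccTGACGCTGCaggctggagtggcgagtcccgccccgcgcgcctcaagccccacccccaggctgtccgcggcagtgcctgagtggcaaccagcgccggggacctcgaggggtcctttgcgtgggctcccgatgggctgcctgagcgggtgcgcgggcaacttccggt
PSMB5, chr14:23035221-23035470, minus strand: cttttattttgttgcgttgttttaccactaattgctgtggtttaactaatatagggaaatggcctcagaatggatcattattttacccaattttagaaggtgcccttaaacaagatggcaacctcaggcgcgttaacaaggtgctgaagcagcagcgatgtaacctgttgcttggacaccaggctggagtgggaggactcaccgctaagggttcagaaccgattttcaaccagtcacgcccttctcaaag

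The CCAAT box, read as CCAAT on both strands, was in 18 of the 38 promoters (47.4%), against 35.7% of all promoters. Heat shock element pairs were rare in both: GAANNTTC was in 0 members against 6.87% of all promoters, and TTCNNGAA was in 2 members, PSMD6 and PSMD5 (5.26%), against 7.84%.

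Each library held between 26797395 and 39710457 counts. Single members had between 290 counts (PSMG4, MG132 replicate 1) and 22138 counts (PSMD2, MG132 replicate 4). Counting error weighs most on the lowest of them, PSMG4, and was not set apart from the spread between libraries. Values below are CPM, counts relative to library size, with library sizes scaled by the trimmed mean of M-values, and fold changes are log2 values from edgeR's quasi-likelihood test, called at a Benjamini-Hochberg adjusted p under 0.05 over all genes tested. Several libraries stood apart from the rest of their group. The slope of expression on GC content was 0.57 on the log2 scale per 10 points of GC in MG132 replicate 4, 0.39 in asynchronous replicate 3, -0.34 in MG132 replicate 2 and 0.27 in G2 replicate 2. Protein-coding genes held 68.3% of all counts, repeat subfamilies included, in G2 replicate 1 and 67.6% in asynchronous replicate 1, against at least 75.5% in every other library. Of 8 epithelial markers, EPCAM, KRT8, KRT18, CDH1, KRT20 and CDX2 were found in every library, while VIL1 and LGR5 were at or below 0.245 CPM. A list of 8 fibroblast genes summed to 5.59 to 12.9 CPM in the drug groups, 6.32 to 10.7 in G2 and 3.23 to 4.27 in asynchronous cells, of which COL1A1 made up 3.17 to 12.4 CPM and each of the other 7 at most 0.439. Of 7 leukocyte genes, summing to 1.69 to 6.55 CPM, CD68 led and the pan-leukocyte marker PTPRC was at or below 0.148 CPM. Their part in the results was not tested. In such bulk samples, fewer cells expressing a gene and less RNA per cell cannot be told apart.

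The drug response itself was large. HSPA1B, which encodes an inducible chaperone of the HSP70 family and has a near-identical neighbour in HSPA1A, had 4094, 3618, 4094 and 5779 CPM in MG132 libraries and 2925, 2098, 2158 and 1825 CPM in bortezomib libraries, against 309.7, 448, 319.9 and 344 CPM in G2 libraries. It rose in MG132 cells by 3.63 (SE 0.303, adjusted p = 4.15e-07) and in bortezomib cells by 2.66 (SE 0.290, adjusted p = 3.04e-05). With α-amanitin beside MG132 it had 380.3, 452, 488 and 698 CPM, and fell by 3.12 against MG132 alone (SE 0.296, adjusted p = 1.57e-06). HSPA6, another HSP70 gene that is strictly stress-inducible, rose by 9.14 with MG132 and by 5.74 with bortezomib. Against that response, none of the 44 proteasome genes passed the test in any of the 6 comparisons with edgeR.

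Levels in untreated G2 cells give the starting point. Per kilobase of annotated exon, the highest members were subunits of the core: PSMB3 at 176 ± 52.7 CPM per kilobase, PSMB5 at 146 ± 43.5, PSMA7 at 145 ± 37.9 and PSMB4 at 135 ± 42.2 (SD, n = 4). These differ from each other by less than their spread. Among the β subunits PSMB2, a structural subunit without a proteolytic site, was lowest at 37.0 ± 7.38. Its merged exons hold 4843 bases, against 1179 (PSMB3) to 2256 (PSMB1) for the other β genes, which lowers its value per kilobase. In CPM it overlapped with PSMB6, at 149 to 228 against 128 to 270 in the G2 libraries. Of the ATPases PSMC3 was highest at 104 ± 22.8 and PSMC6 lowest at 10.9 ± 4.36. The large scaffold PSMD2 (81.0 ± 12.4) and the ubiquitin receptors ADRM1 (73.7 ± 15.3) and PSMD4 (58.4 ± 10.5) stood at the upper end of the 19S subunits. Activators ran from 37.1 ± 10.3 for PSME1 to 8.98 ± 3.54 for PSME4. Among assembly factors POMP, which matures the β rings and is consumed with each new core, was highest at 81.7 ± 15.2. PSMD9 (3.59 ± 0.830) and PSMG4 (1.79 ± 0.274) were lowest, but PSMG4 is annotated with 10418 bases of merged exons, which lowers its value per kilobase. Long merged exons lower the values of PSME4 (10241 bases), PSMD9 (8774) and PSMC6 (7482) in the same way.

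**Figure D1:**
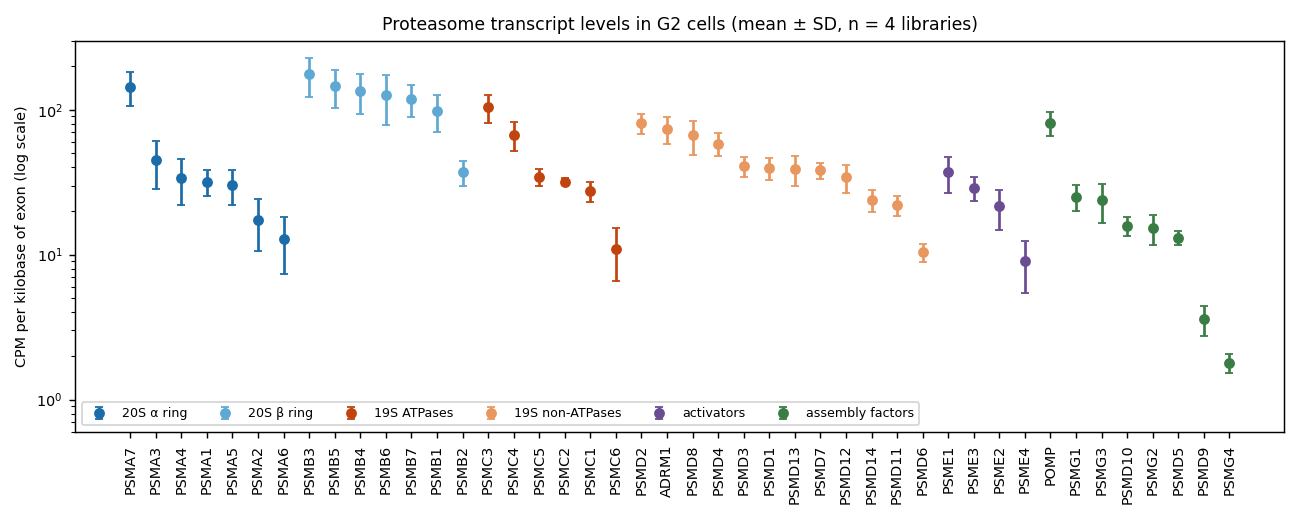
Mean CPM per kilobase of annotated exon (log axis) of each of the 44 genes in the 4 G2 libraries, with SD as bars and colours for the 6 classes. The 4 highest are the core subunits PSMB3 at 176, PSMB5, PSMA7 and PSMB4, and the assembly factors PSMD9 and PSMG4 lie lowest, at 3.59 and 1.79.

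MG132 was compared with G2 to measure the response to inhibition. No member was called in either direction with edgeR, nor with DESeq2 or limma-voom, against 2.08% of all genes (1.01% higher and 1.08% lower); 2 members had an unadjusted p under 0.05, PSMD11 above G2 and PSMG4 below it, against 11.8% of all genes (4.13% higher and 7.67% lower). The members' median log2 fold change was 0.10, or 0.13 above the median of all genes. Values were positive for 30 members and for 8801 of the 18959 genes tested. The sign of the plain median turned under other scalings, to -0.01 by total library size and -0.17 by mitochondrial mRNAs, which moved the median of all genes to -0.15 and -0.29, so differences are also given relative to all genes. For 40 of 44 members the 95% interval excluded a change of 2-fold or more in either direction, as it did for 10366 of all genes. The other 4 were PSMC6, PSMD12, PSMD14 and PSME4, whose intervals reached above a log2 fold change of 1. The median level of the members was 173 CPM, against 10.4 CPM for all genes tested. In this and the later comparisons with all genes, level was not matched, so the shares are not like for like.

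The class medians were as follows. The 19S subunits were above G2 in 17 of 18 cases, with medians of 0.24 for the ATPases and 0.27 for the other subunits. Relative to all genes these medians were 0.27 and 0.30, and they were positive in each of 22 alternative settings, from 0.20 to 0.34 and from 0.21 to 0.39; the plain ATPase median turned to -0.03 with mitochondrial scaling. Both rings of the core lay close to zero, with a median of 0.05 for α and 0.07 for β subunits, turning to -0.06 and -0.01 with total library size and to -0.27 and -0.19 with mitochondrial scaling. These medians rested on G2 replicate 1: without it they were 0.31 and 0.25, level with the cap, at 0.24 for the ATPases and 0.30 for the other subunits. All 8 assembly factors had negative values, with a median of -0.20, or -0.17 relative to all genes, negative in 21 of the 22 settings. Activators had a median of 0.15. Differences between the classes were not tested, and their members share the same libraries.

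Among single 19S genes, PSMC6, an ATPase of the ring, had the highest value, 0.50 (SE 0.423, adjusted p = 0.789), but it was 0.82 without MG132 replicate 4, 0.76 without G2 replicate 1 and 0.22 without the 4 libraries of steep GC slope. PSMD12, a subunit of the lid of the cap (ENSG00000197170.10; hg38 chromosome 17, 67337916 to 67366627, minus strand), had 282, 356, 322 and 74.3 CPM in MG132 libraries against 183, 127, 212 and 213 CPM in G2 libraries. All but replicate 4 of the MG132 group lay above every G2 library. Its log2 fold change was 0.49 (SE 0.359, adjusted p = 0.716), and 0.80 without that replicate (adjusted p = 0.110). PSMC4, another ATPase (ENSG00000013275.8; chromosome 19, 39971005 to 39981441, plus strand), had 178, 196, 215 and 245 CPM with MG132 against 187, 195, 127 and 130.4 CPM in G2, a log2 fold change of 0.38 (SE 0.214, adjusted p = 0.552). The groups overlapped in both genes. PSMD11, a lid subunit that helps hold cap and core together, had 192, 173, 214 and 229 CPM against 131, 189.9, 154 and 155 CPM in G2 (0.36, SE 0.166, adjusted p = 0.399). PSMD4, a ubiquitin receptor, had a value of 0.34 (adjusted p = 0.576).

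In the core, PSMB5 (ENSG00000100804.19; chromosome 14, 23016543 to 23035230, minus strand) had 195, 244, 227 and 311 CPM with MG132 against 343, 302, 193 and 192 CPM in G2. The groups overlapped fully, and its log2 fold change was -0.08 (SE 0.250, 95% interval -0.60 to 0.44, adjusted p = 0.965). PSMA3, an α subunit, ran from 56.0 to 265 CPM among MG132 libraries against 112 to 217 CPM in G2 (0.11, SE 0.368, adjusted p = 0.969). PSME4, the large nuclear activator that caps the core without ATPases, had 164, 166, 136 and 26.4 CPM against 85.9, 43.2, 121 and 118 CPM in G2 (0.42, SE 0.444, adjusted p = 0.865). It too was high in all MG132 libraries except replicate 4, without which its log2 fold change was 0.76 (adjusted p = 0.243).

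The lowest values were those of PSMG4 and PSMG3, which encode the partners of a chaperone pair that guides assembly of the α ring. PSMG4 (ENSG00000180822.12; chromosome 6, 3231403 to 3303373, plus strand) had 10.8, 12.02, 11.3 and 15.6 CPM in MG132 libraries, against 21.3, 21.0, 16.4 and 16.0 CPM in G2 libraries. Every MG132 library lay below every G2 library, which held in this direction for 4.45% of all genes and for no other member; in the opposite direction it held for 2.07% of all genes and 0 members. The log2 fold change of PSMG4 was -0.59 (SE 0.187, adjusted p = 0.131). PSMG4 was called where libraries were scaled by their totals (-0.69, adjusted p = 0.0393) and without MG132 replicate 4 (-0.71, adjusted p = 0.0384). Its value was -0.52 without G2 replicate 1 (adjusted p = 0.311). Without the 2 libraries of low protein-coding share it was -0.50 (adjusted p = 0.386). PSMG3 (ENSG00000157778.9; chromosome 7, 1567330 to 1571005, minus strand) had 30.1, 38.4, 33.9 and 42.0 CPM against 63.9, 51.5, 32.2 and 38.9 CPM in G2, where the groups overlapped (-0.37, SE 0.236, adjusted p = 0.642), and its log2 fold change was -0.18 without G2 replicate 1. PSMD10, a chaperone of the ATPase ring, came next at -0.21 (adjusted p = 0.908), while PSMG1, of the other α-ring pair, had a value of -0.21 (adjusted p = 0.863) and POMP one of -0.08 (SE 0.322, adjusted p = 0.98).

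Bortezomib was compared with G2 in the same way. No member was called with edgeR, DESeq2 or limma-voom, against 1.15% of all genes (0.491% higher and 0.659% lower), and 2 members had an unadjusted p under 0.05, PSMG4 and PSMG3, both below G2, against 14.5% of all genes (5.53% higher and 8.99% lower). The members' median was -0.07, or -0.06 relative to all genes, and its sign turned, to 0.16 where the undocumented letter in the sample codes was entered as a block. The 19S classes lay above the median of all genes, with medians of 0.13 for ATPases and 0.10 for the other subunits. Relative to all genes these were 0.14 and 0.12, positive in each of the 22 settings. The plain medians turned to -0.08 and -0.10 with mitochondrial scaling. Assembly factors lay below the median of all genes with -0.23, or 0.04 where that letter was entered. The β ring had a median of -0.33, with 6 of 7 members negative, and a value of 0.12 under that block. For 39 of 44 members a change of 2-fold or more lay outside the 95% interval, as it did for 9511 of the 18959 genes tested.

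PSMD12 had 326, 267, 331 and 295 CPM in bortezomib libraries, all above the highest G2 library at 213 CPM. Its log2 fold change was 0.73 (SE 0.360, adjusted p = 0.362). PSME4 had 161, 145, 144 and 196 CPM, also all above the highest G2 library at 121 CPM (0.81, SE 0.446, adjusted p = 0.418). The 19S scaffold PSMD1 was the remaining member of this kind, at 0.40 (adjusted p = 0.532); such a separation upward was found in 7.66% of all genes and 3 of 44 members. Downward it was found in 7.55% of all genes and in 1 member, PSMG4, at 13.3, 13.8, 11.9 and 13.0 CPM with bortezomib (-0.52, SE 0.187, adjusted p = 0.186). PSMG3 had 30.2, 25.6, 33.3 and 30.9 CPM (-0.63, SE 0.237, adjusted p = 0.210), with 3 of these libraries below the lowest G2 library and the other between the G2 libraries. PSMB5 had 202, 160.4, 228 and 180.1 CPM (-0.42, SE 0.250, adjusted p = 0.456), and PSMC6 a log2 fold change of 0.52 (adjusted p = 0.564). The log2 fold changes of PSMC4 (0.15), PSMD4 (0.03), POMP (-0.05), PSMA3 (-0.08) and PSMG1 (-0.20) were each within 1 SE of zero. MG132 and bortezomib were set against the same G2 libraries. The class medians and the values of PSMG4, PSMG3, PSMD12 and PSME4 in the comparisons therefore share that side and are not separate observations.

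**Figure D2:**
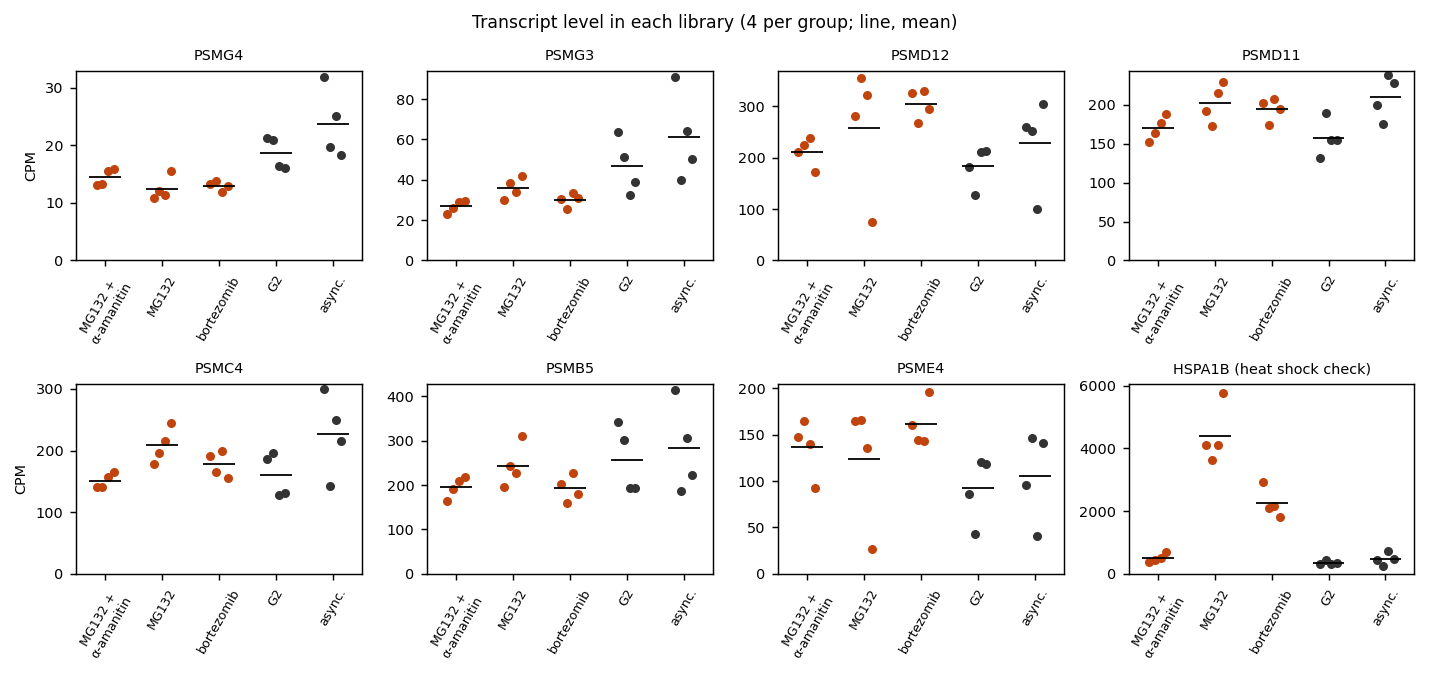
CPM in each library (points) with the group mean (line) for 7 proteasome genes and the heat shock gene HSPA1B, drug groups in orange and the groups without drug in dark grey. HSPA1B separates the MG132 and bortezomib libraries from G2, while among proteasome genes PSMG4 lies lower and PSMD12 and PSME4 lie higher with bortezomib than in any G2 library, without passing the test; MG132 replicate 4 is low for PSMD12 and PSME4.

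MG132 and bortezomib were then compared directly, at matched time but different doses. No member was called with edgeR, DESeq2 or limma-voom, against 0.0369% of all genes (0.0369% higher and 0% lower); 0 members had an unadjusted p under 0.05, against 4.05% of all genes (1.84% higher and 2.21% lower). The libraries of the groups were fully separated for 0 members, against 1.74% of all genes upward and 1.42% downward. The members' median was 0.13, or 0.14 relative to all genes, with 35 of 44 positive, against 9152 of the 18959 genes tested. All 7 β subunits had positive values, at a median of 0.34, led by PSMB3 with 0.43 (SE 0.295) and PSMB4 with 0.40 (SE 0.281), each at an adjusted p of 0.983. With the code letter as a block the β median was 0.07 and the members' median 0.01 (0.14 and 0.08 relative to all genes). PSME1, a subunit of the interferon-inducible activator, had the highest value, 0.50 (SE 0.264, 95% interval -0.05 to 1.05, adjusted p = 0.983), and PSME4 the lowest, -0.39 (SE 0.444, adjusted p = 0.983), or -0.05 without MG132 replicate 4. PSMD12 came next with -0.24, which turned to 0.07 without that replicate, and then PSMD5, a chaperone of the ATPase ring, with -0.23. PSMB5 had 0.34 (SE 0.250, 95% interval -0.18 to 0.86). PSMD4 (0.31), PSMC4 (0.23), PSMA3 (0.18), PSMG1 (-0.01) and POMP (-0.03) lay between these ends on the log2 scale. Intervals lay within 2-fold for 41 members, with PSMB3, PSME1 and PSME4 the exceptions, and for 11325 of the 18959 genes tested. These p-values do not show that both drugs left the genes at the same level.

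**Figure D3:**
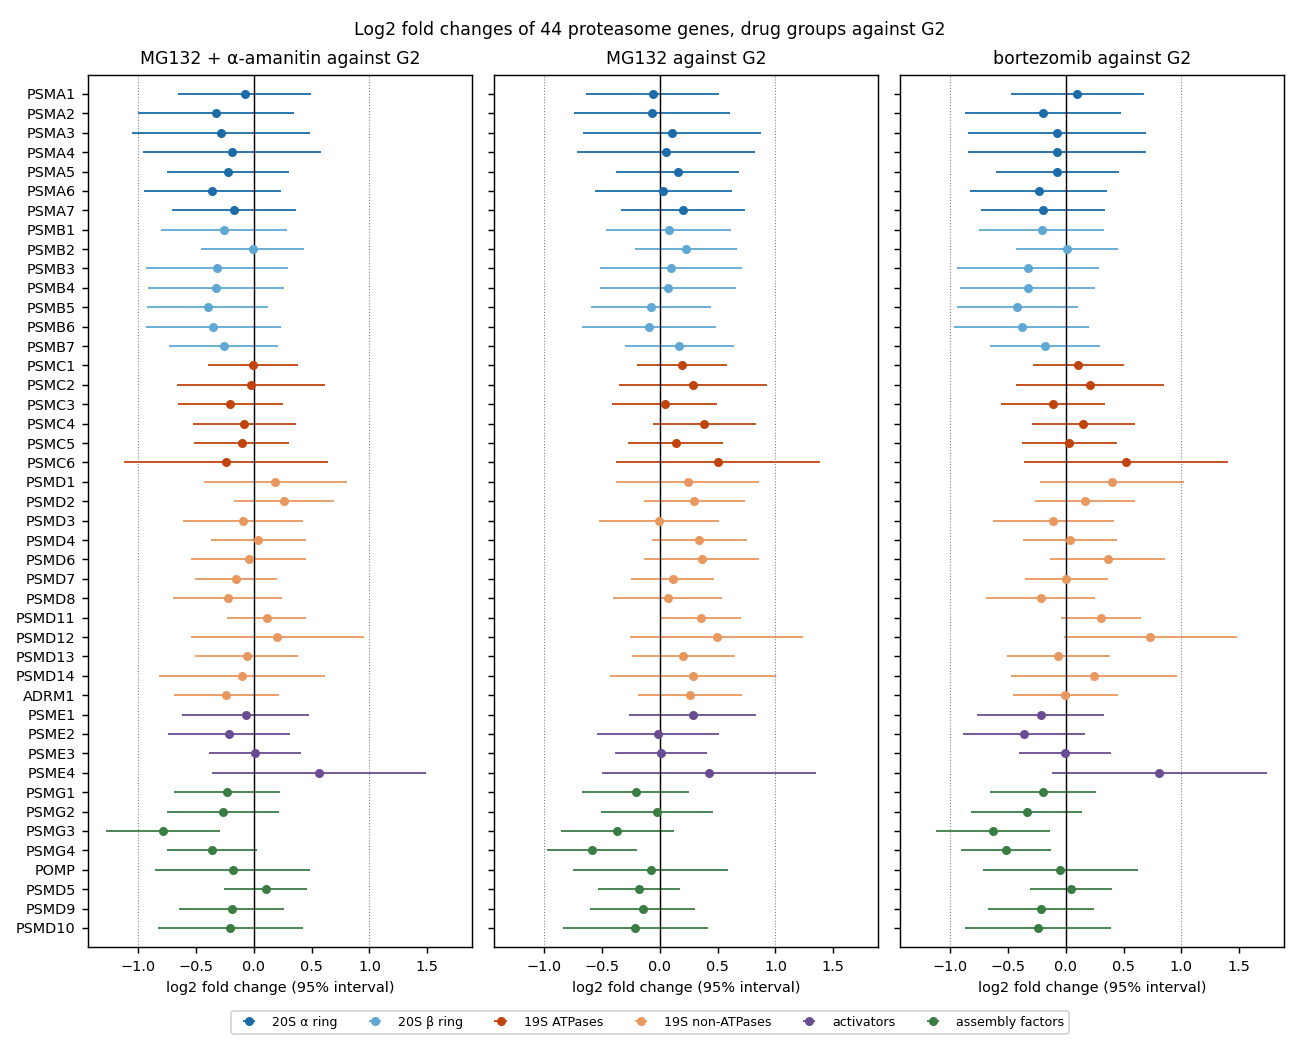
Log2 fold change of each of the 44 genes against G2 (points, edgeR) with 95% intervals (bars) for MG132 with α-amanitin, MG132 and bortezomib; dotted lines mark a 2-fold change. Most 19S subunits lie right of zero with MG132 and all 8 assembly factors lie left of it, PSMG3 and PSMG4 farthest, while with α-amanitin added 36 of 44 members lie left of zero.

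MG132 with α-amanitin was compared with MG132 alone to ask which levels depended on RNA polymerase II during the 3 h. No member was called with edgeR, DESeq2 or limma-voom, against 2.19% of all genes (0.680% higher and 1.51% lower), and 2 members had an unadjusted p under 0.05, PSMC4 and ADRM1, both lower, against 12.5% of all genes (6.62% higher and 5.87% lower). Values were negative for 40 of 44 members and for 9059 of the 18959 genes tested. Members share the same libraries, so their signs are not separate observations. The members' median was -0.26, or -0.28 relative to all genes, whose own median was 0.02. That relative median stayed between -0.36 and -0.18 over the 22 settings. The plain median was -0.09 with total library size, where the median of all genes moved to 0.20, and -0.40 with mitochondrial mRNA scaling. Scaling by the trimmed mean of M-values takes most genes as unchanged, so a fall shared by most transcripts would not show. Class medians were -0.37 for α subunits, -0.33 for β subunits and -0.28 for both the ATPases and the other 19S subunits, and all 32 genes of core and cap had negative values. The α median was 0.03 without MG132 replicate 2. Activators had a median of -0.10 and assembly factors one of -0.03. For 37 of 44 members a 2-fold change lay outside the interval, as it did for 10283 of the 18959 genes tested. For comparison, HSPA1B fell by 3.12.

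PSMC4 had 140.3, 141, 157 and 165 CPM with α-amanitin beside MG132, against 178, 196, 215 and 245 CPM with MG132 alone. The groups did not overlap, and the log2 fold change was -0.47 (SE 0.214, adjusted p = 0.366). PSMG3 was the other member whose libraries were fully separated downward, 23.3, 26.0, 29.2 and 29.5 CPM against 30.1, 38.4, 33.9 and 42.0 CPM (-0.42, SE 0.236, adjusted p = 0.505); this was seen in 4.01% of all genes, and the upward case in 4.82% of all genes and 0 members. ADRM1, a ubiquitin receptor, had 117, 113, 142 and 163 CPM against 162, 153, 195 and 246 CPM (-0.50, SE 0.218, adjusted p = 0.329). PSMC6 had the lowest value, -0.74 (SE 0.424, adjusted p = 0.513). The highest were those of PSMD5 (0.28, SE 0.171, adjusted p = 0.541), PSMG4 (0.22) and PSME4 (0.14). Log2 fold changes between these ends were -0.39 for PSMA3, -0.32 for PSMB5, -0.30 for PSMD4, -0.29 for PSMD12, -0.10 for POMP and -0.02 for PSMG1.

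Against G2, MG132 with α-amanitin gave no call with edgeR or limma-voom and 1 with DESeq2, against 3.35% of all genes with edgeR (1.04% higher and 2.32% lower). PSMG3, 1 of the 44, had an unadjusted p under 0.05, lower, against 14.4% of all genes (5.82% higher and 8.56% lower). PSMG3 had 23.3, 26.0, 29.2 and 29.5 CPM with α-amanitin and MG132 against 63.9, 51.5, 32.2 and 38.9 CPM in G2, with no overlap. Its log2 fold change was -0.79 (SE 0.237, adjusted p = 0.0786), and it was called with DESeq2 (-0.78, adjusted p = 0.0407), with total library size (-0.70, adjusted p = 0.0493), with mitochondrial scaling (-1.20, adjusted p = 0.0184) and without G2 replicate 3 (-0.93, adjusted p = 0.0366). Without G2 replicate 1, the library with the highest PSMG3 value and a low protein-coding share, it was -0.60 (adjusted p = 0.309). PSMB5 followed at -0.40 (SE 0.250, adjusted p = 0.525). PSMG4 was the other separated member, at 13.2, 13.3, 15.6 and 15.9 CPM (-0.36, adjusted p = 0.396); the share of all genes separated downward was 7.24%, and upward 7.76% against 0 members. PSME4 (0.57, adjusted p = 0.643), PSMD2 (0.26) and PSMD12 (0.20) had the highest values. PSMD4 had a log2 fold change of 0.04, PSMC4 of -0.09, POMP of -0.18, PSMG1 of -0.24 and PSMA3 of -0.28. The members' median was -0.19, or -0.18 relative to all genes. Values were negative for 36 of 44 members and for 9554 of the 18959 genes tested.

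The change with synchronisation was measured by comparing G2 with asynchronous cells. No member was called with edgeR, DESeq2 or limma-voom, against 2.09% of all genes (1.95% higher and 0.148% lower). 5 members had an unadjusted p under 0.05, all lower in G2, against 13.1% of all genes (9.20% higher and 3.91% lower): PSMD11, PSMC4, PSMD7, ADRM1 and PSMD4, of which all but PSMC4 belong to the non-ATPase part of the cap. Values were negative for 42 of 44 members, which share the same libraries, and for 10405 of the 18959 genes tested. The members' median was -0.32, or -0.28 relative to all genes. Without asynchronous replicate 1, whose summed member level was 10995.5 CPM against 6349 to 7970.5 CPM in the other 3, the median was -0.11 and 27 members were negative. PSMC4 had 187, 195, 127 and 130.4 CPM in G2 against 299.6, 142, 250.1 and 216 CPM in asynchronous cells (-0.50, SE 0.214, adjusted p = 0.294). ADRM1 had 176, 193, 121 and 141 CPM against 264, 154, 273 and 197 CPM (-0.49, SE 0.218, adjusted p = 0.325). ADRM1 was called once GC content and length of each gene were entered as an offset (-0.54, adjusted p = 0.0469). Its value was -0.40 without asynchronous replicate 1 (adjusted p = 0.509). Without the 2 libraries of low protein-coding share it was -0.44 (adjusted p = 0.805). The groups overlapped for every member, while full separation was found in 5.75% of all genes upward and 1.89% downward. POMP came next among the lowest (-0.44, SE 0.323, adjusted p = 0.659). The highest values were those of the interferon-inducible activator subunits PSME2 (0.15) and PSME1 (0.11), with PSMD5 at -0.03. PSMD4 and PSMG1 each had a log2 fold change of -0.42, PSMD12 of -0.32, PSMA3 of -0.22, PSME4 of -0.20 and PSMB5 of -0.13.

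Summed over the 44 genes, the level was 6198 ± 584 CPM with MG132 and α-amanitin, 7402 ± 782 with MG132, 6668 ± 699 with bortezomib, 6661 ± 1096 in G2 and 8173 ± 1997 in asynchronous cells (SD, n = 4 each). The groups overlapped in every pair. Summed over the 6 ATPases, the libraries with α-amanitin and MG132 (768 to 929.8 CPM) lay below those with MG132 alone (958 to 1156 CPM). The sum of the 19S subunits divided by that of the 20S subunits was 1.46 ± 0.0440 with α-amanitin and MG132, 1.40 ± 0.202 with MG132, 1.56 ± 0.0502 with bortezomib, 1.27 ± 0.243 in G2 and 1.37 ± 0.312 in asynchronous cells. All 4 bortezomib libraries (1.58, 1.60, 1.49 and 1.57) lay above all 4 G2 libraries (0.927, 1.27, 1.44 and 1.45). MG132 libraries (1.58, 1.13, 1.52 and 1.38) overlapped with them. The lowest ratios, 0.927 and 0.928, were those of G2 replicate 1 and asynchronous replicate 1, the libraries with a low protein-coding share; their part in the difference was not tested. Sums of assembly factors were 377 ± 73.2 CPM with MG132 and 371 ± 47.3 with bortezomib, against 425 ± 72.3 in G2. Divided by the 20S sums, they ran from 0.106 to 0.158 with MG132, below 0.159 to 0.173 with α-amanitin added. The β sums divided by the α sums ran from 1.27 to 1.32 with bortezomib, below 1.34 to 1.68 in G2. How often such sums and ratios separate between groups was not worked out.

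**Figure D4:**
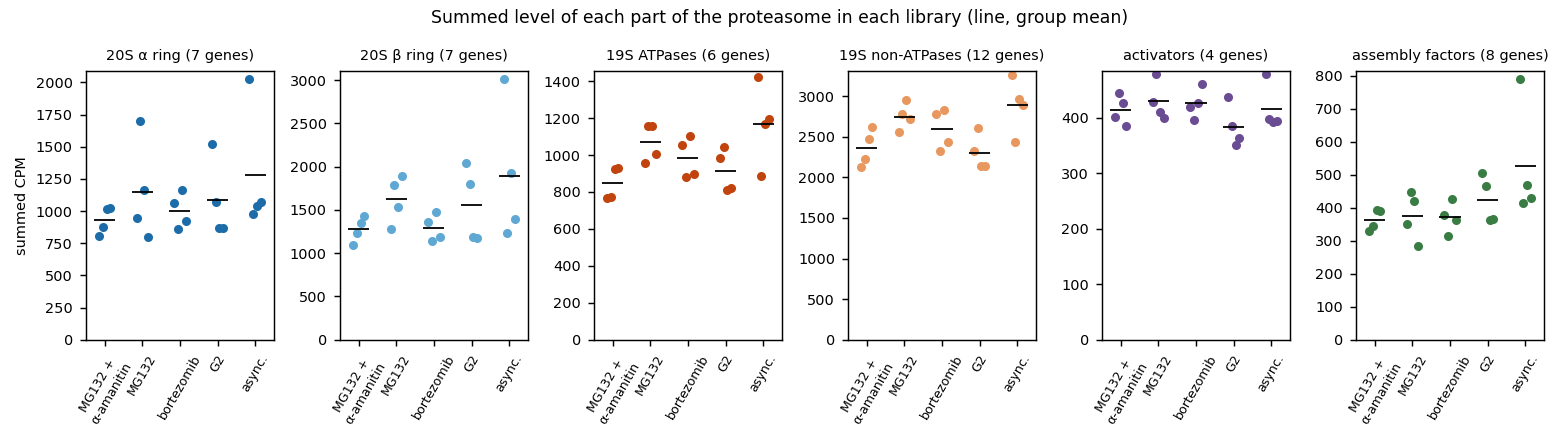
Summed CPM of each class of proteasome genes in each library (points) with group means (lines), drug groups left of G2 and asynchronous cells. The drug groups overlap with G2 in every class, the ATPase sums with α-amanitin and MG132 lie below those with MG132 alone, and asynchronous replicate 1 stands highest for the 20S α ring, at 2030.1 CPM against 980.4 to 1073 in the other 3 asynchronous libraries.

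The spread within groups followed base composition in part of the libraries. Members ran from 32.0% GC in their exons (PSMD14) to 64.2% (ADRM1), with a median of 48.0%. In MG132 replicate 4 the 22 members of lower GC content deviated from their group mean by a median of -0.88, and the 22 of higher GC content by 0.30. MG132 replicate 2 had the reverse, 0.61 for lower and -0.01 for higher GC content. In the bortezomib group and in the group with α-amanitin both sets deviated alike, by -0.19 to 0.18 in each library. PSMD12, PSMC6, PSMD14 and PSME4, the members whose MG132 intervals reached beyond 2-fold, have 37.9%, 38.8%, 32.0% and 41.5% GC. Leaving out the 4 libraries of steep slope gave 0 member calls in every comparison and log2 fold changes against G2 for PSMD12 of 0.55 with MG132 (adjusted p = 0.141) and 0.56 with bortezomib (adjusted p = 0.0602).

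**Figure D5:**
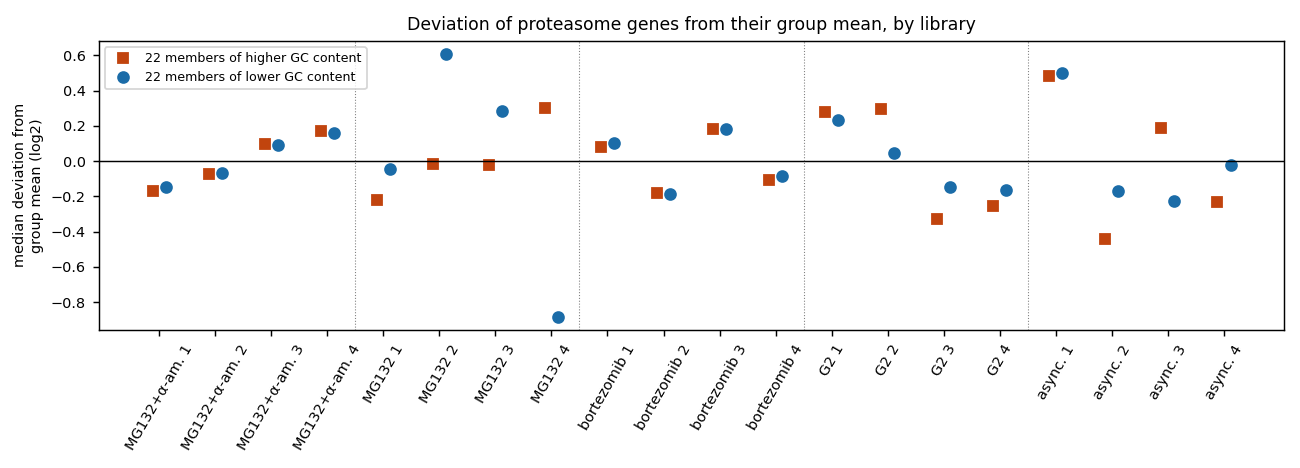
Median deviation (log2) of the 22 proteasome genes of higher GC content (squares) and the 22 of lower GC content (circles) from their group mean in each library. MG132 replicate 4 splits them most, at 0.30 and -0.88, while in bortezomib libraries and those with α-amanitin squares and circles lie side by side.

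Other genes of the pathway were read from a list of 25 tested genes outside the 44: regulators of proteasome expression, receptors that shuttle ubiquitinated cargo, deubiquitinases, the ligase UBE3C, immunoproteasome subunits and further proteasome-associated factors. With MG132 1 of the 25 rose, MAFF, a small MAF partner of NFE2L1, and 0 fell, against 1.01% and 1.08% of all genes; 4 had an unadjusted p under 0.05, all higher, against 4.13% of all genes. MAFF had 30.0, 24.6, 28.6 and 41.5 CPM with MG132 against 12.3, 10.1, 7.67 and 9.50 CPM in G2, with no overlap (1.66, SE 0.299, adjusted p = 0.00424). It was not called with mitochondrial scaling (1.41, adjusted p = 0.0881), and asynchronous cells ranged from 9.18 to 31.3 CPM. In the other 4 comparisons that involve a drug group 0 of 25 were called in either direction with edgeR, DESeq2 or limma-voom. An unadjusted p under 0.05 was found for 4 of the 25 with bortezomib against G2, all higher, against 5.53% of all genes, and for 1 in each of the remaining 3, where the shares of all genes in either direction were 14.4% for MG132 with α-amanitin against G2, 12.5% for it against MG132 and 4.05% for MG132 against bortezomib. With bortezomib MAFF had 18.6, 16.1, 17.8 and 14.4 CPM (0.76, adjusted p = 0.230) and its relative MAFG a value of 0.70 (adjusted p = 0.177).

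NFE2L1 itself had 249.3, 155, 250.1 and 356 CPM with MG132 and 246, 297, 253 and 237 CPM with bortezomib, against 148, 282, 247 and 239 CPM in G2. The groups overlapped, with log2 fold changes of 0.14 (SE 0.257, adjusted p = 0.932) and 0.17 (SE 0.257, adjusted p = 0.757). The protease DDI2 (0.07 with MG132 and 0.61 with bortezomib) and the deglycosylase NGLY1 (-0.05 and 0.16) were not called either. NFE2L2, the related stress factor, had 105, 186, 118 and 27.1 CPM with MG132 against 83.6, 44.3, 79.1 and 84.3 CPM in G2 (0.58, adjusted p = 0.679). Its log2 fold change with α-amanitin beside MG132, against MG132 alone, was -0.77 (adjusted p = 0.449), and it was called without the 4 libraries of steep GC slope (-0.80, adjusted p = 0.0150). With bortezomib all libraries lay above all G2 libraries for 11 of the 25, against 7.66% of all genes, and below them for 0. One was USP14, a deubiquitinase bound to the cap, which had 58.5, 56.1, 53.2 and 71.5 CPM with bortezomib, against G2 libraries at 43.1, 29.2, 36.6 and 38.5 CPM (0.70, SE 0.285, adjusted p = 0.257).

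Set beside these values, the medians of members with and without the promoter motif lay close together, and the difference was not tested. With MG132 the 13 members with TGACNNNGC had a median log2 fold change of 0.10 and the 25 without it one of 0.11. With bortezomib the medians were -0.11 and -0.05, and with α-amanitin beside MG132, against MG132 alone, -0.20 and -0.26. In each pair the ranges overlapped. With MG132 they ran from -0.21 to 0.49 with the motif and from -0.59 to 0.50 without it. For bortezomib they ran from -0.36 to 0.81 with it and from -0.52 to 0.52 without it. PSMD12, PSME4 and PSMD1, whose bortezomib libraries all lay above G2, carry the motif, in PSMD1 only past the start. Such a separation was found in 3 of 44 members and in 7.66% of all genes, and no member was called. PSMG4, whose bortezomib libraries all lay below G2, does not.

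Some members share sequence with neighbours. Of the 44, 24 overlap another gene of the table by position, and for 14 that gene has at least 10% of the member's mean count. PSMA1, PSMA2, PSMA6 and PSMD9 overlap a read-through gene on the same strand with a similar mean count, so their values are uncertain: 3303 for PSMA1 and 2621 for its neighbour, 2650.5 and 2559.8 for PSMA2, 2346 and 2596 for PSMA6, and 914 and 750.45 for PSMD9. Neighbours on the opposite strand with high counts include FTSJ3, with a mean of 4683 against 5028 for PSMC5, and MRPL32, with 2151 against 2650.5 for PSMA2. SPIRE1 had 1108 against 1485 for PSMG2, and BECN1 had 2839 against 4743 for PSME3. PSMG4 overlaps SLC22A23 on the opposite strand over a long annotated span, and its reads cannot be told from those of that gene unless strand was used in counting.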

How the data were processed

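Per the labels' protocols, total RNA of 20 HCT-116 samples was depleted of ribosomal RNA and made into strand-specific libraries. Raw counts per gene and repeat subfamily came as 1 table deposited by the authors; hg38, FastQC, cutadapt 1.18 and STAR are named in the submitters' processing notes without their roles. Not given in the sources used here are the counting tool, annotation, strand setting and treatment of reads with several matches. Gene positions come from GENCODE 29. Genes passing filterByExpr were tested in R 4.3.3 with edgeR 4.0.16 (TMM, robust quasi-likelihood F-test, 1 mean for each of 5 groups, 15 residual degrees of freedom, Benjamini-Hochberg adjustment over 18959 genes, called under 0.05); the biological coefficient of variation was 33.3%. SE is the log2 fold change divided by the square root of F. DESeq2 1.42.0, limma-voom 3.58.1, other scalings and filters, a block on replicate number or code letter, and left-out libraries were alternatives. Named are called genes, the 3 highest and 3 lowest members of each comparison and a fixed set of subunits and regulators, beside genes whose groups did not overlap. The members and lists were chosen with earlier results of these data known. No pair of replicates agreed within sampling noise. A result on a pathway gene outside the members is not reported here.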

Additional observations from a re-analysis of the deposited data

Results flagged for a closer look

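In 260 groups of 4 values (each of the 44 members, the 6 class sums, their total and the ratio of 19S to 20S sums, in 5 groups), 15 had 1 library far from the other 3 by Dixon's ratio of gap to range; chance alone gives about 1 in 20 groups. Of the 15, 6 were asynchronous replicate 1 and 3 were G2 replicate 1, the libraries of low protein-coding share.

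In asynchronous replicate 1, POMP had 297 CPM against 93.7 to 126 in the other 3, PSMA2 had 179 against 80.1 to 84.1, and PSMA6 had 138 against 66.2 to 78.1. In that library the α ring summed to 2030.1 CPM against 980.4 to 1073, the activators to 478 against 392 to 398, and the assembly factors to 790.5 against 416 to 468. In G2 replicate 1, POMP had 149 CPM against 104 to 108, PSMA3 had 216.5 against 112 to 117, and PSMA4 had 359 against 177 to 205. G2 replicate 2 stood apart for the cap subunits PSMC1, at 207 CPM against 153 to 158, and PSMD7, at 124 against 97.6 to 99.0. Asynchronous replicate 3 was high for PSMD2, at 639 CPM against 399 to 436, and for PSMD5, at 64.7 against 56.9 to 58.0. PSMC1 was low in asynchronous replicate 2, at 179 CPM against 229.7 to 237. PSMG1 was high in MG132 replicate 3, at 69.2 CPM against 48.0 to 51.3.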

How the results depend on the processing

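Of 2222 alternative values for 101 named gene results, 8 passed the threshold only under the alternative (PSMG4, PSMG3, ADRM1 and NFE2L2), 1 no longer passed it (MAFF), 26 uncalled values changed sign by more than 1 SE, 0 called values changed sign, and the other 2187 stayed on their side of the threshold. The members' median log2 fold change against G2 with mitochondrial mRNA scaling was -0.17 for MG132, -0.31 for bortezomib and -0.59 for MG132 with α-amanitin; the code letter as a block gave 0.16 for bortezomib. For MG132 with α-amanitin against MG132, total library size gave -0.089 and mitochondrial scaling -0.40. Leaving out 1 library gave -0.26 to -0.043 for MG132 with α-amanitin against G2, the higher value without G2 replicate 1. Members called lower numbered 1 for MG132 against G2 (PSMG4) with total library size, and 0 to 1 with 1 library left out; 1 for MG132 with α-amanitin against G2 (PSMG3) with total library size, mitochondrial scaling or DESeq2, and 0 to 1 with 1 library left out; and 1 for G2 against asynchronous cells (ADRM1) with a GC and length offset. The cause was not tested. That offset, and leaving out the libraries of low protein-coding share, were chosen after seeing the data. In no comparison did all 4 same-numbered pairs correlate above 0.1, so the numbers were not taken to pair the samples; the values were -0.416, -0.599, 0.49 and -0.52 for MG132 and G2, and, nearest to a pairing, 0.617, 0.06, 0.144 and 0.587 for MG132 with α-amanitin and MG132, whose replicates 1, 2 and 4 also share a code letter; the replicate block gave 0 member calls in each of the 6 comparisons and medians of 0.11, -0.05 and -0.16 for MG132, bortezomib and MG132 with α-amanitin against G2, and -0.26 for the combination against MG132. Calls over all genes ranged over the alternatives from 86 to 819 for MG132 (395 in the design used), 30 to 621 for bortezomib (218) and 224 to 1005 for MG132 with α-amanitin (636) against G2, from 186 to 718 for MG132 with α-amanitin against MG132 (415), 0 to 19 for MG132 against bortezomib (7) and 8 to 874 for G2 against asynchronous cells (397). With 4 libraries a group and a median SE of 0.25, changes well under 2-fold could be missed.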
